A study of Mus musculus with 262 samples.

Results

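The genes described here encode the oxidative phosphorylation machinery of the mouse kidney, that is, the respiratory chain and the ATP synthase. They are all genes whose symbol begins with Nduf, Uqcr or Atp5, whose symbol begins with Cox followed by a digit from 4 to 8, the genes Sdha, Sdhb, Sdhc and Sdhd, and all genes of the mitochondrial genome, whose symbols begin with mt-. Symbols containing -ps were left out. The rule found 130 genes among the 47069 rows of the tables of TPM (a length-scaled share of all transcripts, with the same total in every sample). Of these, 93 lie on nuclear chromosomes and 37 on the mitochondrial genome. The nuclear genes comprise 7 core and 29 accessory subunits of complex I, 4 subunits of complex II, 8 of complex III, 20 of complex IV, 15 of the ATP synthase and 10 genes counted as assembly or associated factors. The mitochondrial genes comprise 13 protein genes, 2 ribosomal RNA genes and 22 transfer RNA genes.

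Complexes I and II pass electrons from NADH and succinate to ubiquinone, complex III passes them on to cytochrome c, and complex IV, cytochrome c oxidase, reduces oxygen to water. Complexes I, III and IV pump protons across the inner mitochondrial membrane, and the ATP synthase uses the resulting gradient to make ATP. All complexes other than complex II combine subunits from both genomes. In the kidney, the proximal tubule and the thick ascending limb are known for dense mitochondria that feed the sodium pump, and in the collecting duct the intercalated cells, which secrete acid or base, are known as mitochondria-rich cells, in contrast to principal cells, which reabsorb sodium and water.

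All animals were male and 2 months old. Single cells came from kidneys of C57BL/6 mice, were sorted on DBA, c-Kit, both, or PNA, and were captured on C1 chips, with 87 type A intercalated, 23 type B intercalated, 74 principal, 19 proximal tubule and 32 non-epithelial cells as named by the authors. Bulk samples were 2 of c-Kit-sorted and 2 of DBA-sorted C57BL/6 kidney cells, and 2 GFP-positive and 2 GFP-negative samples sorted by fluorescence from the strain Atp6v1b1GFP, whose name joins a proton pump subunit gene to GFP; no source used here names the element that drives GFP. Single tubules of C57BL/6 mice were dissected by hand, giving 11 samples of cortical collecting duct (CCD) and 8 of the thick ascending limb in the cortex (cTAL). Polyadenylated RNA was sequenced throughout. No source says which samples came from separate animals, so p-values measure the spread between these samples, which may be technical.

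Reads assigned to genes numbered 35530885 to 40815091 in the GFP samples, and TPM keeps no depth for the other samples. The defining markers followed the labels in the tubules and the non-epithelial cells, and less closely in the proximal tubule cells. Summed TPM of 7 principal cell markers was 25228 to 46542 in CCD and 43.6 to 213 in cTAL, and that of 5 thick limb markers 53.5 to 701 in CCD and 33613 to 53916 in cTAL. The non-epithelial cells carried a mean of 37303 TPM over 5 macrophage and dendritic markers, against 2.53 to 301 TPM in the other types, and 3 endothelial markers were near 0 in them at 0.103 TPM. The proximal tubule cells carried a mean of 3443 TPM over 7 proximal tubule markers (median 2307, lowest cell 3.46). They also carried 2224 TPM over 7 principal cell markers (median 157). Of the 87 type A cells, 84 had at least 1 TPM over 4 type A markers. Some libraries stood apart. Among nuclear subunits with transcripts of 1000 bases or more, the CCD column headed m2_CCD2 had a median of -0.75 log2 units relative to the CCD median of each gene. Those with shorter transcripts were at 0.43 and 0.55 in the CCD columns m3_CCD2 and m6_CCD1. The second GFP-positive sample exceeded the first by a median of 0.48 for short and 0.25 for long subunit transcripts, against 0.13 and -0.04 over all short and long genes.

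Transcripts of the mitochondrial genome were only partly represented in the TPM tables. The transfer RNA genes were listed at 0 TPM in every sample, as were mt-Co2, mt-Atp8, mt-Atp6, mt-Co3 and mt-Nd4l, and mt-Nd3 reached at most 0.37 TPM in 1 cell. The protein genes among them encode subunits of complex I, complex IV and the ATP synthase that all cells with mitochondria need, so a listed 0 is not a level. Of these 6 protein genes, 5 have near-identical annotated copies on chromosome 1 that run in the opposite direction. The 4 stretches below are the first 60 bases of 2 of these genes and of their copies (GENCODE vM21, GRCm38), and are shown because the copies can hardly be told from the genes by sequence. Capitals mark the difference found along the compared 345 bases of mt-Nd3, written T3C and counted from the first base of the gene.
mt-Atp6, chrM:7927-7986, plus strand: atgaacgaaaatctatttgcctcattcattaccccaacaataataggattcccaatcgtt
Gm10925, chr1:24614592-24614651, minus strand: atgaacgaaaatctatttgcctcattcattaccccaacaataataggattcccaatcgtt
mt-Nd3, chrM:9459-9518, plus strand: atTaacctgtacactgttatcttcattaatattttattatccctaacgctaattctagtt
Gm28438, chr1:24613060-24613119, minus strand: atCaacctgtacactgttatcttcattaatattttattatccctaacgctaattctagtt

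The copies Gm28661, Gm10925, Gm28437 and Gm10222 equalled mt-Co2, mt-Atp6, mt-Co3 and mt-Nd4l at all 681, 678, 783 and 294 bases compared, and were themselves listed at 0. Gm28438 was listed at a mean of 51.2 TPM over the single cells while mt-Nd3 was at 0.00157 TPM. Between 98.0% and 100% of the 50-base windows of these 5 genes occurred in another annotated transcript. No window of mt-Nd1, mt-Nd6, mt-Cytb or mt-Rnr1 did, and these were listed at 2222 to 50930 TPM on average over the cells. Sequence shared with annotated transcripts did not go with a listed 0 throughout. Of their windows, mt-Nd4 shared 62.2% and mt-Co1 51.1%, and these genes were listed at 6785 and 31053 TPM. The gene mt-Atp8 shared 0% and was listed at 0. Sequence outside annotated transcripts was not searched. That includes chromosome 1 between Gm10925, ending at 24614651, and Gm28661, starting at 24614885, copies of the genes on either side of mt-Atp8. Its 0% therefore does not show that mt-Atp8 has no copy. The mitochondrial part described below therefore rests on 7 protein genes (mt-Nd1, mt-Nd2, mt-Nd4, mt-Nd5, mt-Nd6, mt-Co1 and mt-Cytb) and 2 ribosomal RNA genes. Of these, mt-Nd6 lies on the other strand from its neighbours, and since no source used here gives the strand setting, its reads cannot be told from antisense ones.

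**Figure D1:**
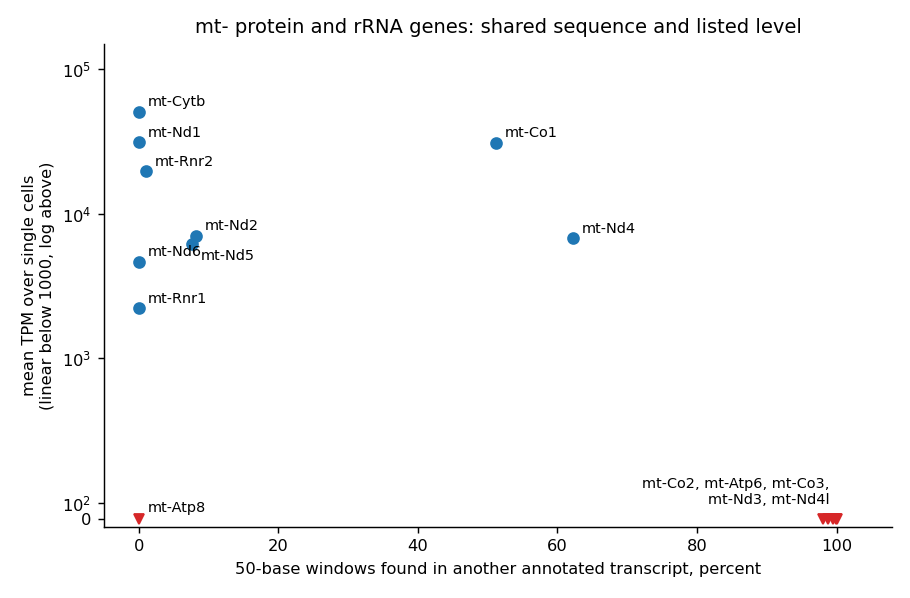
Each point is a mitochondrial protein or ribosomal RNA gene, plotted by the percentage of its 50-base windows found in another annotated transcript (x axis) and its mean TPM over 235 single cells (y axis, linear below 1000 and logarithmic above). Red triangles are genes listed at or near 0: mt-Atp8 at 0% shared windows, and mt-Co2, mt-Atp6, mt-Co3, mt-Nd3 and mt-Nd4l at 98.0% to 100%. Sequence outside annotated transcripts was not searched.

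Among the single cells, nuclear subunit transcripts were most abundant in type B intercalated cells and least abundant in non-epithelial cells. The 83 nuclear subunits (all nuclear genes other than the assembly factors) summed to a mean of 129943 TPM per cell in type B (SD over cells 38454, range 67273 to 194489). The sum was 91342 TPM in type A (SD 30875, range 17848 to 160086). Principal cells had 71454 TPM (SD 18340), proximal tubule cells 66042 TPM (SD 18108) and non-epithelial cells 41001 TPM (SD 21013). The ranges of all types overlapped. Cells are not replicates and no animal is named, so each type is 1 sample and these are descriptions without a test.

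Markers of other cell types were present in many cells. Each type was restricted to cells in which no other type's marker sum exceeded 5% of its mean in that other type. This left 28 type A, 13 type B, 49 principal, 9 proximal tubule and 12 non-epithelial cells. Their mean nuclear sums were 84577, 135820, 69924, 71048 and 23652 TPM. The non-epithelial value thus fell to 23652 from 41001 TPM, and principal and proximal tubule cells exchanged places. The part of other cell types' RNA in the values of single genes was not tested.

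Of the 79 nuclear subunits with a mean of at least 1 TPM in some type, 62 had their highest mean in type B, 13 in type A, 2 in proximal tubule, 2 in non-epithelial cells and 0 in principal cells. The lowest mean was in non-epithelial cells for 65 of 79. The shares of all genes with their highest or lowest mean in each type were not computed. In type B, 23 of 79 were at least 2-fold above principal cells, against 20.4% of 11947 genes, and 7 of 79 were at least 2-fold above type A, against 21.0% of 11584 genes. In type A, 3 of 79 were at least 2-fold above principal cells, against 21.1% of 12458 genes. At any fold, 71 of 79 were higher in type A, against 43.7% of these genes. The excess of type B over type A was broad and small: 63 of 79 were higher in type B, against 43.3% of all genes. The median log2 ratio was 0.45, where the median over all genes was -0.27. Against non-epithelial cells, 69 of 79 were at least 2-fold higher in type B (32.4% of genes), 50 in type A (35.2%), 24 in proximal tubule (31.2%) and 21 in principal cells (39.5%).

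The order of types was alike across complexes. The 29 accessory subunits of complex I summed to 35533 TPM in type B, 23386 in type A, 19427 in principal, then 18534 in proximal tubule cells, with 11549 TPM in the non-epithelial type. The ATP synthase subunits summed to 29366, 20208, 17119, 14178 and 9521 TPM in the same order. The 7 core subunits of complex I, which carry its redox centres and quinone site, stood closer together in the intercalated types, at 4063 TPM in type B and 3733 TPM in type A, and lower in principal cells at 2285 TPM. Ndufa1, a small membrane subunit of complex I, showed the largest excess in type B, at 5321 TPM (SD 2765) against 2074 TPM (SD 1504) in type A. Ndufa2, another accessory subunit, was at 1369 TPM in type B and 585 TPM in the next type, and Uqcrfs1, the Rieske iron-sulphur protein of complex III, at 864 and 388 TPM. Atp5b, the catalytic beta subunit of the ATP synthase, was the most abundant nuclear subunit named here in type B, at 6008 TPM, and at 3218 TPM in type A, with 3114, 2957 and 1799.6 TPM in the principal, proximal tubule and non-epithelial types.

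Not all members followed that order. For the types other than type B, members leading or closest to leading are named here. In type A the leading members were mt-Co1, the catalytic subunit of complex IV, at 43784 TPM against 27222 in the next type, Ndufv1, the NADH-binding core subunit, at 476 against 337 TPM, and Atp5g2, one of the genes for the c-ring of the ATP synthase, at 116 against 91.2 TPM. In principal cells the closest to leading were Ndufb4 at 167 TPM, Sdha, the flavoprotein of complex II, at 366 TPM, and Atp5c1, the gamma subunit, at 1450 TPM, each below another type. In proximal tubule cells mt-Nd2 (9528 TPM), mt-Rnr1 (3192 TPM) and Cox6a1 (5776 TPM) led by log2 ratios of 0.11, 0.04 and 0.04. In non-epithelial cells Ndufs4, an accessory subunit of complex I, averaged 480 TPM with an SD of 1988 over cells and a median of 2.78 TPM. Its mean therefore rested on few cells.

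Mitochondrial transcripts gave a different order. The mt- genes took 21.4% of TPM in type A (SD 13.2, range 3.33 to 68.0). The share was 17.1% in proximal tubule (SD 11.7), 15.6% in type B (SD 10.9), 12.4% in principal (SD 11.4, range 0.0156 to 66.1) and 9.29% in non-epithelial cells (SD 7.99). The SD over cells exceeded every gap between neighbouring types. Since TPM is a share of a fixed total, a cell with many mt- transcripts has less room for others. With the mt- rows taken out and each cell rescaled to the same total, the nuclear sum was still highest in type B at 156646 TPM, followed by type A at 114735, principal at 81384, proximal tubule at 80475 and non-epithelial cells at 45512. Principal and proximal tubule cells thus had nearly equal nuclear sums. By contrast, 7 of 7 mt- protein genes were higher in proximal tubule cells, with a median log2 ratio of 0.60. Over all genes, 36.5% were higher there, with a median of -0.67. Across cells within a type, Spearman's rho between the nuclear sum outside mt- rows and the mt- percentage was -0.21 over 87 type A cells, 0.35 over 23 type B cells, 0.02 over 74 principal cells, 0.39 over 19 proximal tubule cells and 0.35 over 32 non-epithelial cells. Both values of a cell come from 1 library, so this is a description. Genes with at least 1 TPM numbered 1092 to 4307 per cell. In the same order of types, rho between that number and the mt- percentage was -0.40, -0.22, -0.09, 0.08 and 0.04. Between that number and the nuclear sum it was 0.37, -0.38, 0.16, -0.205 and 0.58. The part of library quality in the order of types was not tested.

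**Figure D2:**
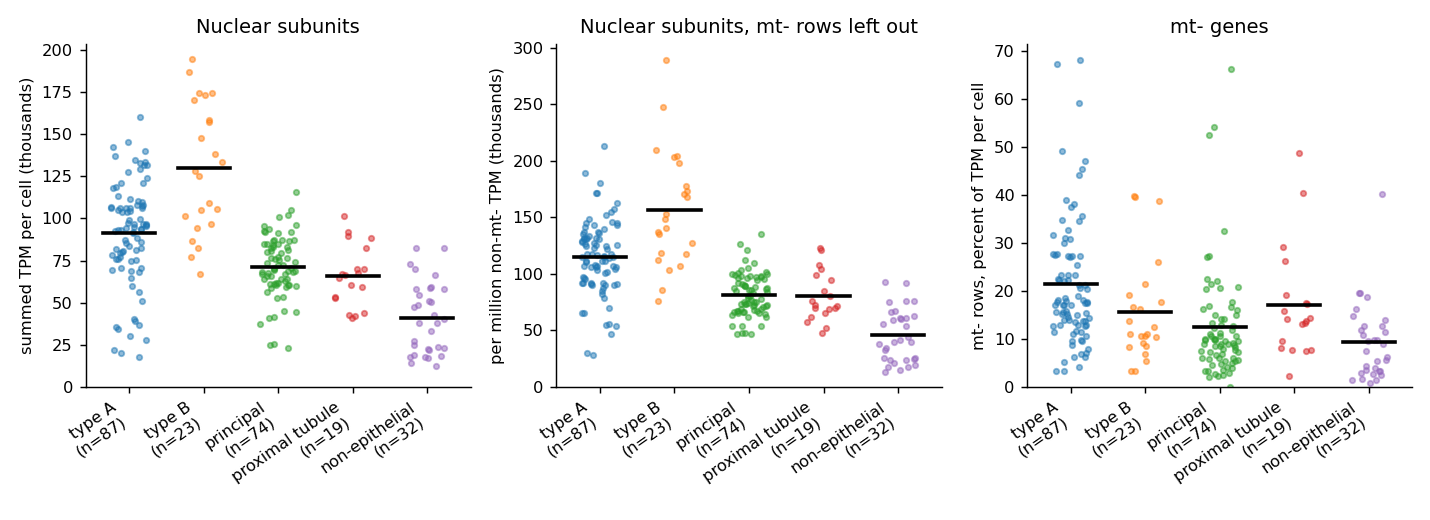
Each point is a single cell and each bar a mean. The panels show, for the 5 cell types, summed TPM of nuclear subunits, the same sum with mt- rows taken out and the total rescaled (both in units of 1000 TPM), and mt- rows as a percentage of TPM. Type B is highest in the first 2 panels (means 129943 and 156646), and type A in the third (mean 21.4%), with overlapping ranges.

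In the bulk samples, the respiratory chain was higher in c-Kit-sorted than in DBA-sorted cells in nearly every complex and in both genomes. The nuclear subunits summed to 102799 and 108620.3 TPM in the c-Kit samples and to 66609 and 68739 TPM in the DBA samples. The mt- protein genes summed to 37316 and 38815 TPM in c-Kit and 21048 and 25844 TPM in DBA samples. Both c-Kit samples were above both DBA samples in each sum. The ratio of mt- protein to nuclear subunit TPM was 0.363 and 0.357 in c-Kit and 0.316 and 0.376 in DBA samples and overlapped. Of 99 members with a mean of at least 1 TPM, 89 rose in c-Kit relative to DBA samples (limma on log2(TPM + 1), Benjamini-Hochberg adjusted p under 0.05 over 14341 genes), against 16.1% of all genes, and 1 fell, against 28.1% of all genes. The groups did not overlap for 96 of the 99, against 73.9% of all genes. The median log2 difference of the members was 0.61, that of all genes -0.11. After quantile normalization, which moved the median of all genes to 0.02 and the calls over all genes from 2315 higher and 4033 lower to 3055 and 3072, 88 members were called higher.

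Marker genes moved with this difference. Summed TPM of 7 principal cell markers was 2524 to 3399.8 in c-Kit and 22366 to 24929 in DBA samples (7 of 7 fell), that of 5 macrophage and dendritic markers 3669 to 3919 and 11720.2 to 12173.5 (5 of 5 fell), and that of 7 proximal tubule markers 2649.9 to 2921 and 4289 to 4643 (5 of 7 fell). The 4 type A markers were at 3059 to 3097 and 61.1 to 73.1 TPM (4 of 4 rose). The 4 type B markers were at 1616 to 1633 and 159 to 178 TPM (4 of 4 rose). The part of these markers in the result was not tested. In bulk samples, fewer cells of a type and less RNA per cell cannot be told apart.

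All 7 core subunits of complex I rose in c-Kit samples, with a median log2 difference of 0.79. Ndufs1, the largest core subunit, which carries iron-sulphur clusters, was at 527 and 562 TPM in c-Kit and 266 and 251 TPM in DBA samples (log2 difference 1.07, SE 0.06, limma adjusted p = 4.46e-05). Of the 29 accessory subunits, 28 rose, with a lower median of 0.53. The largest difference among them was that of Ndufa10, at 819 to 890 TPM against 384 to 388 TPM (log2 difference 1.14, SE 0.06, limma adjusted p = 3.29e-05). Ndufv3 was the accessory subunit not called, at 522 and 526 against 452 and 483 TPM.

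The 4 subunits of complex II, which is also the succinate dehydrogenase of the citric acid cycle, rose as well. Sdhd, one of its membrane anchors, was at 1329 and 1291 TPM in c-Kit and 631 and 612 TPM in DBA samples (log2 difference 1.07, SE 0.06, limma adjusted p = 2.75e-05). All 8 subunits of complex III rose with a median of 0.79, led by Uqcrb, a ubiquinone-binding subunit, at 2873 and 3055 against 1357 and 1427 TPM (log2 difference 1.09, limma adjusted p = 4.57e-05). Of the ATP synthase subunits, 14 of 15 rose, among them Atp5b with a log2 difference of 0.52. Atp5g2 was at 73.2 to 77.5 TPM in c-Kit and 61.3 to 73.2 TPM in DBA samples and was not called.

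Complex IV was the only complex of the nuclear part with a subunit called lower, and its subunits that did not rise were at low levels. Of its 17 tested subunits, 14 rose, 1 fell and 2 were not called. The largest rise among all members was that of Cox7a1, the isoform of subunit 7a known from heart and skeletal muscle, described in detail later. Ndufa4l2, a hypoxia-responsive relative of Ndufa4, fell, from 5.41 and 6.85 TPM in DBA to 3.22 and 3.38 TPM in c-Kit samples (log2 difference -0.72, SE 0.18, limma adjusted p = 0.018). That call was not stable, since 0 members were called lower after quantile normalization or without the filter on low values. The 2 genes not called, Cox4i2 and Cox6a2, isoforms known from lung and from muscle, were at 0.68 to 2.31 TPM in all 4 samples.

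In the mitochondrial part, 6 of 7 protein genes rose with a median log2 difference of 0.74. The difference was largest for mt-Nd6 (1974 and 2144 against 968 and 1236 TPM, log2 difference 0.91, limma adjusted p = 0.00114). The remaining gene, mt-Nd2, was at 2182 to 2185 TPM in c-Kit and 1380 to 1961 TPM in DBA samples. The 2 ribosomal RNA genes were not called by limma (1 of them was higher at an unadjusted p under 0.05): mt-Rnr1 was at 298 to 362 against 200 to 360 TPM and mt-Rnr2 at 2352 to 2427 against 1425 to 2154 TPM. Among the 10 assembly and associated factors 8 rose, the largest difference being that of Atp5s, a factor related to ATP synthase coupling, at 46.7 to 55.0 against 19.6 to 25.2 TPM (log2 difference 1.15, limma adjusted p = 0.000871).

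Microdissected collecting ducts had lower levels of these transcripts than thick ascending limbs, and the mitochondrial part differed more than the nuclear part. Summed TPM of nuclear subunits ran from 82223 over a median of 113956 to 154593 in the 11 CCD and from 133781 over 147509.6 to 174554 in the 8 cTAL, with overlap. Summed mt- protein TPM ran from 23495 over 28115 to 36544 in CCD and from 45541 over 61044 to 76471 in cTAL, without overlap. The ratio of mt- protein to nuclear subunit TPM was 0.182 to 0.343 in CCD (median 0.235) and 0.303 to 0.567 in cTAL (median 0.427). It overlapped only through 1 thick limb, m4_cTAL1 at 0.303, which lay below 3 of the CCD. All mt- rows together made up 2.66% to 4.51% of TPM in CCD and 4.91% to 8.21% in cTAL.

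Of 97 tested members, 51 fell in CCD relative to cTAL (limma on log2(TPM + 1), adjusted p under 0.05 over 13520 genes), against 5.50% of all genes, and 1 rose, against 13.2% of all genes. The groups did not overlap for 22 members, against 5.51% of all genes. The median log2 difference of the members was -0.43 while that of all genes was 0.31. Quantile normalization moved the latter to -0.03 and the calls over all genes from 1782 higher and 744 lower to 1221 and 1244, with 59 members lower and 1 higher. Without the variance trend of limma, which shares the spread between genes of like level, the comparison called 28 members lower and 1 higher. Summed TPM of proximal tubule markers was 13.4 to 878 in CCD and 1.28 to 579 in cTAL, and that of macrophage and dendritic markers 84.6 to 511 and 22.0 to 609, with 0 of 5 tested in each list called.

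**Figure D3:**
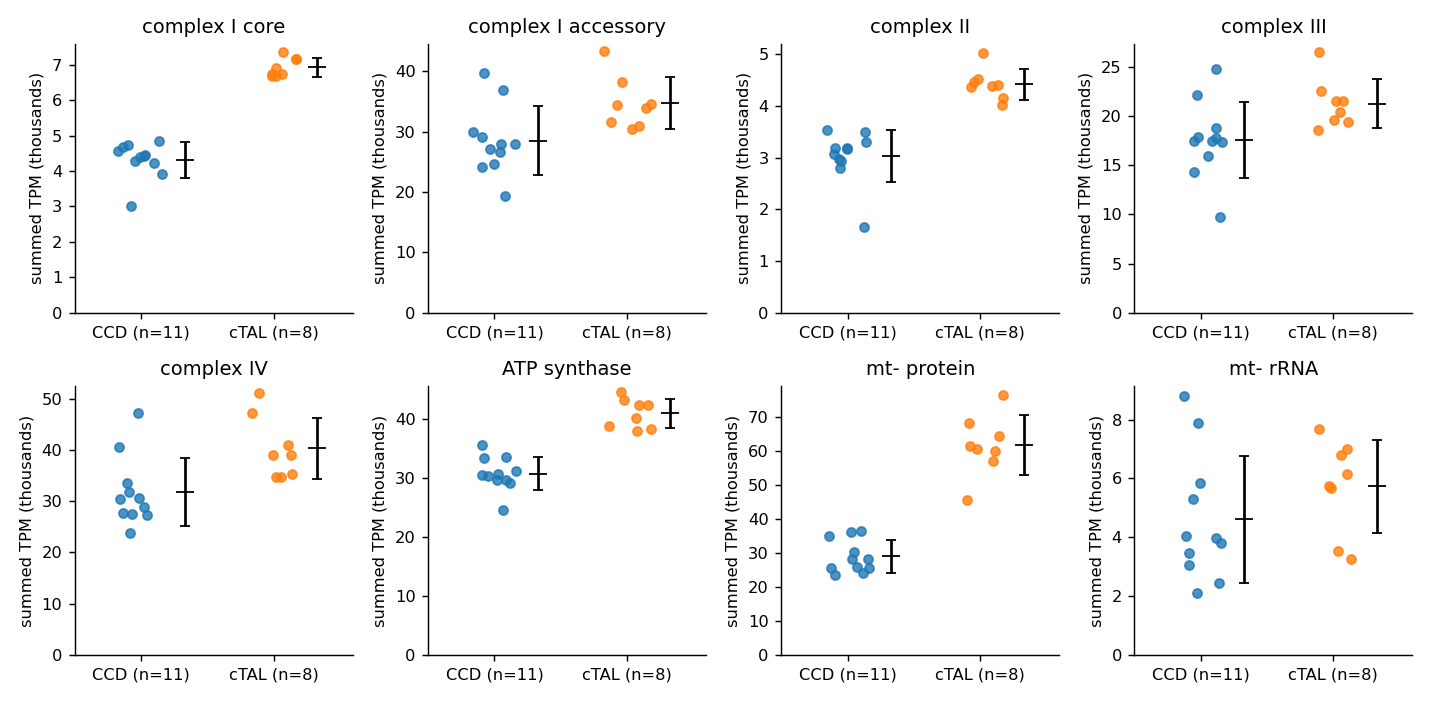
Summed TPM, in units of 1000, for each group of members in 11 CCD and 8 cTAL. Points are tubules, and bars show the mean and 1 SD. The groups lie apart for the complex I core, complex II, ATP synthase and mt- protein sums, and overlap for the others.

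All 7 core subunits of complex I fell in CCD, and their sum lay apart at 3013 to 4843 TPM in CCD and 6666 to 7366 TPM in cTAL. The accessory subunits differed less, with 11 of 29 called lower and a median of -0.28 against -0.65 in the core. The longest annotated transcripts of the core subunits ran from 983 to 2661 bases, and many accessory ones were shorter, down to 419 bases. Differences varied with transcript length, as given below, and its part in this contrast was not tested. Among the accessory subunits Ndufb4 was at 97.5 to 163 against 191 to 424 TPM and Ndufb9 at 1562 to 2743 against 2812 to 4402 TPM. Ndufa1 was not called, at 1493 to 5519 against 2428 to 4461 TPM.

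In complex II, 3 of 4 subunits fell. Sdhb, its iron-sulphur protein, was at 440 to 1312 TPM (median 1058) in CCD and 1688 to 1985 TPM (median 1803) in cTAL (log2 difference -0.90, SE 0.14, limma adjusted p = 3.86e-05), while Sdhd was at 689 to 1293 against 1063 to 1421 TPM and not called. In complex III, 5 of 8 fell, including the 2 large core proteins Uqcrc1 and Uqcrc2 at -0.64 and -0.86. In complex IV, 6 of 15 fell and 1 rose. Cox4i1, the common isoform of subunit 4, fell by 0.58 on the log2 scale, at 2700 to 5145 against 4495 to 7045 TPM. For the ATP synthase, 10 of 15 fell, with a narrow range of differences from -0.59 to -0.19. Atp5b was at 7713 to 11105 TPM in CCD and 10069 to 14440 TPM in cTAL (log2 difference -0.40, limma adjusted p = 5.13e-05), a direction that turned to 0.18 after quantile normalization. Among assembly and associated factors 2 of 10 fell, Ndufaf7 and Atp5sl.

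The mitochondrial protein genes fell as a group, 7 of 7, with a median log2 difference of -1.18. Cytochrome b of complex III, mt-Cytb, was at 8058 to 11832 TPM in CCD (median 8861) and 16321 to 25912 TPM in cTAL (median 21276), without overlap (log2 difference -1.19, SE 0.08, limma adjusted p = 5.21e-11). The complex I subunits mt-Nd5 and mt-Nd4 had the largest differences, at -1.32 and -1.29, and mt-Co1 differed by -1.18. The ribosomal RNA genes did not follow, with 0 of 2 called by limma and 0 at an unadjusted p under 0.05. For mt-Rnr2 the range was 1705 to 6585 TPM in CCD and 2702 to 6096 TPM in cTAL.

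Differences among the nuclear subunits varied with transcript length. In CCD against cTAL, the 33 subunits with a longest annotated transcript of 1000 bases or more had a median log2 difference of -0.51 and the 45 shorter ones of -0.29. Over all genes the medians were 0.33 for long and 0.16 for short transcripts. Spearman's rho between length and difference across the 78 subunits was -0.49, where genes are not independent replicates. In the c-Kit comparison the medians were 0.65 and 0.61. The columns that stood high for short subunit transcripts, m3_CCD2, m6_CCD1, m6_cTAL1 and m3_cTAL1, belonged to both tubule kinds, and leaving out each tubule in turn left between 44 and 59 members called. The part of transcript length or RNA quality in the result was not tested.

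In the comparison of GFP-positive with GFP-negative cells, called members were mostly lower in GFP-positive cells. In the fit without a block, the share called lower was near that of all genes. The count table held the 93 nuclear members, and mt- genes were not analysed there. Of 87 members tested with edgeR's quasi-likelihood test, 20 fell (adjusted p under 0.05 over 15671 genes), against 17.3% of all genes. None, 0 of 87, rose, against 15.2% of all genes. At an unadjusted p under 0.05, 2 were higher, and DESeq2 called 1 higher and limma on RPKM 0. The groups did not overlap for 58 of 87, against 69.2% of all genes, and the median log2 difference was -0.35 with 0.02 over all genes. The RPKM headers assign the samples to a first and a second experiment, each with 1 GFP-positive and 1 GFP-negative sample. With that number as a replicate block, edgeR called 36 members, of which 34 fell and 2 rose. Over all 15671 genes that fit called 3112 lower and 2785 higher, so members then fell at a share above that of all genes. The 2 that rose were Atp5s and Atp5sl, whose differences were 0.65 and 0.63 in the fit without the block. The number called depended on single libraries. It was 3 without the first GFP-positive sample, 36 without the second, 15 without the first GFP-negative sample and 9 without the second.

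Proximal tubule markers moved with this comparison. Their summed level was 15503.5 to 16862 CPM (reads scaled to library size, not to length) in GFP-negative and 2021 to 3207 CPM in GFP-positive samples (7 of 7 fell). In the same order, 4 type A markers were at 45.5 to 93.7 and 3757 to 8204 CPM (4 of 4 rose). The 4 type B markers were at 12.6 to 21.6 and 1691 to 2480 CPM (4 of 4 rose). The 4 distal convoluted and connecting tubule markers were at 136 to 210 and 2589 to 3761 CPM (4 of 4 rose). The 7 principal cell markers were at 520 to 546 and 1178 to 1894 CPM (6 of 7 rose). The 5 thick limb markers were at 7757 to 8712 and 10036 to 15499 CPM (1 rose and 1 fell). The part of these markers in the result was not tested.

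Of the members that fell, 10 were accessory subunits of complex I, 1 was a core subunit, 1 belonged to complex II, 2 to complex III, 3 to complex IV, 2 to the ATP synthase and 1 was an assembly factor. Ndufaf6, an assembly factor of complex I, was at 6.59 and 7.61 CPM in GFP-positive and 16.7 and 19.9 CPM in GFP-negative samples (log2 difference -1.46, SE 0.29, edgeR adjusted p = 0.00556). Its deposited RPKM values overlapped, at 14.6 and 3.49 in GFP-positive and 5.52 and 24.2 in GFP-negative samples. Ndufb4 was at 5.77 to 7.53 against 12.3 to 16.9 CPM (log2 difference -1.21, edgeR adjusted p = 0.0154). Uqcr10, a small subunit of complex III, was at 76.6 and 117 against 183 and 188 CPM (log2 difference -1.02, edgeR adjusted p = 0.0102). Ndufa2 and Ndufb2 followed at -1.03 and -0.98. In CPM, both GFP-positive samples lay below both GFP-negative samples in each of these genes, and the second GFP-positive sample was the higher of the pair in each. In RPKM the groups also lay apart in Ndufb4, Uqcr10, Ndufa2 and Ndufb2.

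Reference subunits divided. Ndufv1 and Sdhb fell by 0.59 and 0.67 on the log2 scale, and all 8 complex III subunits had negative differences, of which 2 were called. Atp5b was at 8588 and 8828 CPM in GFP-positive and 6118 and 6222 CPM in GFP-negative samples (log2 difference 0.40, SE 0.23, edgeR adjusted p = 0.22). Atp5a1, the alpha subunit, was at 1431 to 1551 against 1264 to 1265 CPM, Ndufs1 at 325 to 356 against 276 to 317 CPM and Sdha at 713 to 853 against 626 to 724 CPM, and none of these was called. Over all nuclear subunits, the summed CPM was 17693 and 19123 in GFP-positive and 17571 and 16854 in GFP-negative samples. Atp5b alone made up 8828 and 8588 CPM of the GFP-positive and 6222 and 6118 CPM of the GFP-negative sums. The CPM sums thus rest largely on 1 gene that was not called. They do not show the direction of most subunits, since 64 of 77 tested had negative differences. The deposited RPKM values, which divide by length, gave sums of 12317 and 12856 against 16189 and 16979, but their column totals also differed, from 387574 to 739301. By length the medians were -0.49 for 44 short and -0.20 for 33 long subunit transcripts, and -0.34 and 0.04 over all short and long genes.

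The same genes were called in opposite directions in these comparisons, which share no samples. Over all genes, 32.6% were called in either direction in the GFP comparison, 44.3% in the c-Kit comparison and 18.7% in the tubules. All 20 members called in the GFP comparison (without the block) were also called in the c-Kit comparison, each in the opposite direction. The clearest were Uqcrq, Uqcr10 and Atp5e, at -0.94, -1.02 and -0.76 in GFP-positive against GFP-negative samples and 0.78, 0.75 and 0.73 in c-Kit against DBA samples. Of 51 members called in both the c-Kit and the tubule comparison, 50 had opposite directions, with mt-Nd6, Sdhb and mt-Co1 the clearest, and 1, Cox7a1, had the same. Of 8 called in both the GFP and the tubule comparison, 8 had the same direction. Within each comparison the calls ran almost all 1 way. Members rising and falling numbered 0 and 20 for GFP, 89 and 1 for c-Kit, and 1 and 51 for the tubules. The counts of opposite and same directions follow largely from this and are no separate result. The share of all genes called in opposite directions was not computed. The reference groups differ: GFP-negative cells, DBA-sorted cells and cTAL.

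**Figure D4:**
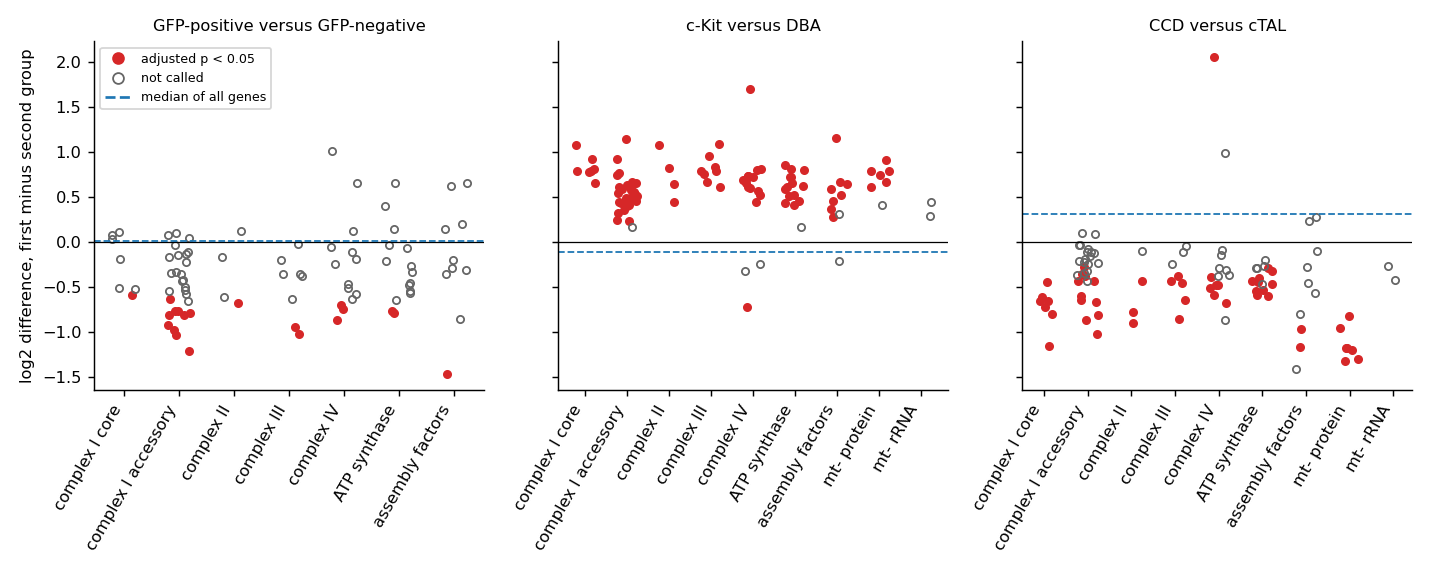
Log2 differences of all tested members by complex in the 3 replicated comparisons, as first minus second group. Filled red points passed the test at an adjusted p under 0.05, open points did not, and the dashed line is the median of all genes. Members lie mostly above 0 for c-Kit against DBA (median 0.61), and mostly below for CCD against cTAL (-0.43) and GFP-positive against GFP-negative (-0.35), and Cox7a1 is the highest filled point in the first 2 of these.

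Cox7a1 (chromosome 7, 30184144 to 30186078, plus strand, GRCm38) stood apart from other members. It encodes subunit 7a of complex IV, which sits at the outer rim of the enzyme and takes part in its dimer, and Cox7a2 (chromosome 9, 79755361 to 79759878, minus strand) encodes the widely expressed isoform. In the bulk samples Cox7a1 was at 854 and 1019 TPM in c-Kit and 278 and 297 TPM in DBA samples (log2 difference 1.70, SE 0.09, limma adjusted p = 3.19e-05). Both c-Kit samples lay above both DBA samples.

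In the tubules, Cox7a1 was at 651 to 1476 TPM in CCD (median 897) and 178 to 421 TPM in cTAL (median 214), without overlap (log2 difference 2.05, SE 0.17, limma adjusted p = 4.09e-09). It was the only member of the 97 tested that limma called higher in CCD. Cox7a2 was at 820 to 1871 TPM in CCD and 1170 to 1930 TPM in cTAL (log2 difference -0.36, limma adjusted p = 0.0582). The ratio of Cox7a1 to Cox7a2 was 0.608 to 1.00 in CCD and 0.121 to 0.263 in cTAL, 0.733 and 0.814 in c-Kit, and 0.420 and 0.409 in DBA samples. In every CCD the ratio exceeded that of every cTAL.

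In single cells the ratio of mean TPM was 0.679 in type A, 0.618 in non-epithelial, 0.559 in principal, 0.404 in type B and 0.135 in proximal tubule cells. Mean Cox7a1 was 826 TPM in type A (SD 928), 719 in type B (SD 761), 497 in principal (SD 739), 289 in non-epithelial (SD 462) and 125 TPM in proximal tubule cells (SD 226). Cox7a1 exceeded Cox7a2 in 26 of 87 type A, 19 of 74 principal, 2 of 23 type B, 4 of 32 non-epithelial and 0 of 19 proximal tubule cells. In the GFP samples Cox7a1 was at 5.07 and 8.92 CPM in positive and 3.62 and 4.83 CPM in negative samples and was not called (log2 difference 0.65, edgeR adjusted p = 0.263). The deposited RPKM values listed it at 42.5 and 41.6 against 10.0 and 23.6, and the ratio to Cox7a2 in RPKM was 0.371 and 0.292 in positive and 0.0383 and 0.0967 in negative samples.

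**Figure D5:**
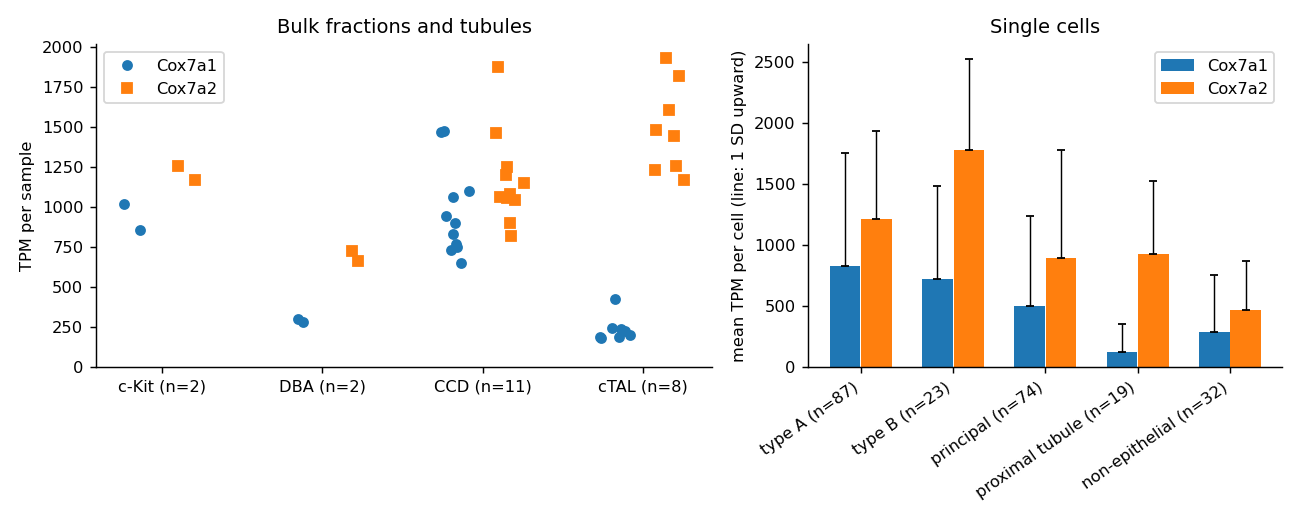
Left, TPM of Cox7a1 (circles) and Cox7a2 (squares) in each bulk sample and tubule. Right, mean TPM per cell in each single-cell type, with lines reaching 1 SD over cells upward. Cox7a1 lies at 651 to 1476 TPM in CCD and 178 to 421 TPM in cTAL, and in the proximal tubule cells its mean is 125 TPM beside 925 TPM for Cox7a2.

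The 250 bases before the RefSeq start of both isoform genes (GRCm38.p6) are shown because Cox7a1 rose in CCD and Cox7a2 was not called, and they hold none of the 3 motifs searched below in either strand.
Cox7a1, chr7:30183921-30184170, plus strand: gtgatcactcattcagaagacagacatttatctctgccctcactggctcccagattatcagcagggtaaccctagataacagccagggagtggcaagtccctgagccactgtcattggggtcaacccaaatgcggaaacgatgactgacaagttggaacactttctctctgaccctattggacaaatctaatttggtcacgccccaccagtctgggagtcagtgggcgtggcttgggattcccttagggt
Cox7a2, chr9:79759854-79760103, minus strand: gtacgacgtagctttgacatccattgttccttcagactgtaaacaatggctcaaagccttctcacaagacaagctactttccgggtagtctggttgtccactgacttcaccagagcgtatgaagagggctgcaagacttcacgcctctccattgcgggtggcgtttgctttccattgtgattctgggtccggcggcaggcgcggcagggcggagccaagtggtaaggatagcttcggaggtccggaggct

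Of the other isoforms of complex IV, 1 member of each pair was far above the other in the single-cell means. Cox4i1 was at 1679 to 4140 mean TPM across the single-cell types, and Cox4i2 reached at most 0.049 TPM. Cox6a1 was at 2760 to 5776 mean TPM and Cox6a2 at 0 to 2.03 TPM. Cox8b, the heart isoform of subunit 8, was listed at 0 in every type while Cox8a was at 1111 to 4772 TPM. Ndufa4l2 was at 8.83 TPM in non-epithelial cells, where 1 of 32 cells had at least 1 TPM, and below 0.01 TPM elsewhere. The c-ring genes had 2 abundant members, since Atp5g1 and Atp5g3 were at 495 to 2337 and 885 to 3114 TPM and Atp5g2 at 57.1 to 116 TPM. Cox7a2l, known for joining complexes III and IV into supercomplexes, was at 321 TPM in type A and 274 in principal, 245 in non-epithelial, 106 in type B and 72.3 TPM in proximal tubule cells.

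Genes around the chain were read from lists, whose counts stand beside the shares over all genes: 16.1% rose and 28.1% fell in c-Kit samples, 13.2% and 5.50% in CCD, and 15.2% and 17.3% in GFP-positive samples. Of 13 citric acid cycle genes, 13 rose in c-Kit relative to DBA samples (limma), 8 fell and 0 rose in CCD relative to cTAL, and 3 rose and 1 fell in GFP-positive relative to GFP-negative samples (edgeR). Of 11 carriers, exchangers and inhibitors, 7 rose and 2 fell in c-Kit samples, 1 rose and 3 fell in CCD, and 2 rose and 2 fell in GFP-positive samples. Ucp2, an inner membrane carrier of the uncoupling protein family, was the one that rose in CCD, at 1142 ± 177 against 116 ± 43.3 TPM (log2 difference 3.36, limma adjusted p = 3.78e-13). It fell in c-Kit relative to DBA samples (log2 difference -0.87) and rose in GFP-positive samples (1.46). Of 12 assembly factors of cytochrome oxidase, 7 rose in c-Kit samples, 1 rose and 1 fell in CCD, and of 11 tested 1 rose and 1 fell in GFP-positive samples.

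Among 14 regulators of mitochondrial genes, 6 of 13 tested rose and 1 fell in c-Kit samples, against 16.1% and 28.1% of all genes. Esrrg, an orphan nuclear receptor known to drive such genes, was at 105 ± 2.55 against 37.0 ± 1.80 TPM (SD, n = 2 and 2, log2 difference 1.48, limma adjusted p = 2.26e-05), and the coactivators Ppargc1a and Ppargc1b rose by 0.66 and 1.54. In GFP-positive samples the counts were near the shares of 15.2% and 17.3% over all genes: 3 of 14 rose, namely Ppargc1a (1.16), Ppargc1b (1.56) and Esrrg (1.08), and Ppara, a fatty acid sensor, and Polrmt, the mitochondrial RNA polymerase, fell by 1.74 and 0.76 (edgeR). In CCD relative to cTAL 2 of 14 fell, against 5.50% of all genes, Esrrb at 0.105 ± 0.194 against 21.9 ± 12.6 TPM and Ppargc1a at 85.8 ± 41.2 against 180 ± 51.5 TPM (SD, n = 11 and 8). Esrrg was at 36.8 ± 18.6 and 37.2 ± 15.8 TPM there and was not called.

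Promoters of 74 nuclear members were matched by identifier to RefSeq windows of 250 bases before to 50 bases after a start (GRCm38.p6). They were searched on both strands for the NRF1 palindrome, the site of nuclear respiratory factor 1 printed in capitals in the first 5 stretches below, TCAAGGTCA, the site of estrogen-related receptors, and CCGGAAGT, a site of ETS factors such as the GABPA complex. The first was found for 7 of 74 members (9.46%) and 1.07% of 27025 genes, the second for 2 (2.70%) and 0.466%, and the third for 5 (6.76%) and 4.31%. The windows of members had a median GC content of 57.7% and all windows 52.7%. A match describes letters and is not a site of binding. The stretches below, with the motif in capitals, are those of NRF1 before the start and 1 of the estrogen-related receptors, from subunits of complexes I and IV and the ATP synthase and an assembly factor.
Ndufa11, chr17:56717692-56717721, plus strand: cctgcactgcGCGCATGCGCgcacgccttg
Cox6a1, chr5:115349101-115349130, minus strand: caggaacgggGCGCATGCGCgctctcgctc
Atp5k, chr5:108434430-108434459, minus strand: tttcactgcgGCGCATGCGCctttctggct
Atp5g2, chr15:102671070-102671099, minus strand: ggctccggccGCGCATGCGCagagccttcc
Ndufaf4, chr4:24897960-24897989, plus strand: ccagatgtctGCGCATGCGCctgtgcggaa
Atp5g3, chr2:73911360-73911388, minus strand: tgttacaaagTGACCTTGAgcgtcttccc

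Of the 6 genes with a motif shown, 5 rose in c-Kit relative to DBA samples and Atp5g2 was not called. Of all members tested there, 89 of 99 rose, and 16.1% of all genes did. In CCD relative to cTAL, Atp5k and Atp5g3 fell and Ndufa11, Cox6a1, Atp5g2 and Ndufaf4 were not called. In that comparison 51 of 97 members and 5.50% of all genes fell. The 6 genes were chosen for printing from those with a match, and a link between match and level was not tested.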

How the data were processed

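RNA was measured in 235 single cells, 8 bulk samples and 19 tubules, grouped by their titles. The deposited TPM values (single cells, c-Kit and DBA samples, tubules) and the deposited RPKM values and HTSeq read counts (GFP samples) are the authors' own; per the file names and values, the counts are whole reads per gene and the RPKM values are scaled by length and depth. The submitters' processing notes name STAR 2.5.1b, RSEM 1.2.31, Seurat and the build GRCm38.p5, without saying for which table. No source used here gives the strand setting; the GFP tables use the RefSeq annotation of mm10 (GRCm38), per the file names. Of the reads listed in the count table, 66.7% to 72.8% lay in no feature or were ambiguous and stayed out.

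Counts were fitted with edgeR 4.0.16 (TMM, filterByExpr, quasi-likelihood F test) and TPM with limma 3.58.1 (variance trend, log2(TPM + 1), mean of at least 1 TPM) in R 4.3.3, on whole tables, with Benjamini-Hochberg adjustment and a threshold of 0.05; both were tested on simulated data. A difference on the log2(TPM + 1) scale understates the change of low genes. The GFP samples are paired by the experiment named in the RPKM headers (first and second, taken as numbers 1 and 2 of the counts), with correlations of their deviations of 0.18 in counts and -0.01 in RPKM; the block is given beside the result it moves. Single-cell types were described without a test, and the sort label of a cell was not tied to a column. The number of per-sample columns not used was 0. No test crossed tables. Intervals are not given for TPM, since depth is unknown. The members and lists were chosen with earlier results of these data known. Named are the 5 called members per direction with the largest difference among those with groups apart and a mean of at least 10, isoform pairs, reference subunits, the 3 leading members of each cell type and the 3 clearest opposite calls; a few further members were named after their values were seen, and some items are not reported here. Positions and transcript lengths are from GENCODE vM21 (GRCm38), promoters from RefSeq. Alternatives were DESeq2 1.42.0, other size factors, filters, pseudocounts of 0.1 and 5, quantile normalization, removal of mt- rows, sample weights, a replicate block and leaving out samples.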

Additional observations from a re-analysis of the deposited data

Results flagged for a closer look

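Within the 8 cTAL, 59 summed levels and members were examined for a sample far from the others, a gap that chance gives in about 1 of 20 such groups, and 6 stood out. Summed assembly factors reached 1587 TPM in the column m3_cTAL1, with the next at 1216 TPM. In m6_cTAL1, Ndufa1 was at 4461 TPM (next 3199.8), Uqcrfs1 at 1844 TPM (next 1469) and Atp5l at 112 TPM (next 93.9). Cox7a1 was at 421 TPM in m1_cTAL1 (next 240), still below the lowest CCD at 651 TPM. The lowest mt-Nd6 value was 2044 TPM in m4_cTAL1 (next 2934).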

How the results depend on the processing

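For GFP-positive against GFP-negative samples, limma on RPKM called 1639 genes, 12 members and 7 named members, against 5101, 20 and 17 in the main analysis. The replicate block called 5897 genes and 36 members. Leaving out each GFP sample gave 3616 to 4211 genes, 3 to 36 members and 3 to 17 named members, and 3 of the 20 members were called without each sample. For c-Kit against DBA, leaving out each sample gave 3458 to 5701 genes, 80 to 89 members and 39 to 42 named members; all genes called numbered 3600.0 without DBA sample 1 and 3458 without DBA sample 2, against 6348. For CCD against cTAL the corresponding values were 2239 to 3078, 44 to 59 and 25 to 31; analysis without a variance trend called 29 members, sample weights 4401 genes, and quantile normalization gave Atp5b a difference of 0.18. The cause was not tested. In every other setting, 8 of the 20 members called for GFP, 81 of 90 for c-Kit and 28 of 52 for the tubules were called. With the column prefix of the tubules (m1 to m7), which no source explains, as a block or averaged, 55 and 46 members were called, alternatives chosen after seeing the data. Deviations of c-Kit and DBA samples with the same replicate number correlated at 0.05, so the number is not shown to pair them; the block on it called 92 members. The tubule columns carry no number of the titles, so no block on it was possible. TPM gives no depth, so levels near 0 cannot be bounded.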
